A study of Mus musculus with 18 samples.

Results

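The TGF-beta and BMP pathway was followed through 54 genes in the 3 major cell types of the mouse glomerulus, among the 22909 distinct gene symbols of the array. The genes comprised 3 TGF-beta ligands, 4 latent TGF-beta binding proteins, 12 BMP, GDF and activin ligands, 11 receptors, 8 Smads, 2 ubiquitin ligases, 4 Id genes and 10 extracellular modulators, the decoy receptor Bambi included among the last. Each member was taken by its gene symbol, and where 2 transcript clusters (the array's unit for a gene) carried the symbol, as for 5 members, the brighter cluster over all arrays was used. All 54 members were found on the array. The question behind the study was which pathways are altered in each glomerular cell type when Cd2ap, an adaptor protein of the podocyte slit diaphragm, is mutated, as a model of focal segmental glomerulosclerosis.

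Cells came from 5 week old mice. Cd2ap mutant animals carried the allele Cd2ap tm1Shaw on the background B6.129X1 and are labelled CD2AP-/-, and the genotype field of all controls reads wildtype. Every group, mutant or wild type, also carried a GFP reporter that defined its cell type: Meis1-GFP for mesangial cells, Tie2-GFP for endothelial cells and a reporter of its own for podocytes. GFP positive cells were sorted from dissociated glomeruli, RNA was amplified in a single round, and each of the 6 groups of cell type and genotype was hybridised to 3 Affymetrix Mouse Gene 1.0 ST arrays, 18 in all. The arrays of a group are called A, B and C below, in the order of the deposited columns, and the same letter does not pair arrays of different groups. The labels call the 3 arrays biological triplicates, and whether cells of several animals were pooled is not stated, so the p-values measure the spread between these arrays. Cell type and reporter strain cannot be told apart in comparisons between cell types. The mesangial controls carry plus/minus in their column names, unlike the plus/plus of the other controls, and their titles call them control where the other titles say wild type. They are called wild type here after their genotype field. Whether they were heterozygous for Cd2ap cannot be told from the labels, and this holds for every mesangial comparison.

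Ligands of the TGF-beta family are secreted as dimers and bind type II receptors, which activate type I receptors. TGF-beta is stored in the matrix in a latent form held by latent TGF-beta binding proteins, while BMPs are held in check by secreted antagonists. Type I receptors for TGF-beta and activin activate Smad2 and Smad3, those for BMPs activate Smad1, Smad5 and Smad9, and both branches share Smad4. Smad6, Smad7 and the ubiquitin ligases Smurf1 and Smurf2 limit the signal, and Id genes are well known BMP targets. In the glomerulus TGF-beta is best known as an inducer of matrix, and BMP signals for their part in building nephrons and in vessel identity.

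Values are linear RMA signals, and differences are log2 mutant minus wild type with the standard error (SE) of the fit and the p-value adjusted over all transcript clusters tested. Array medians lay between 62.8 and 71.6, and signals ran from 19.6 to 6689. The Cd2ap cluster itself had signals of 819, 870.4 and 797 in mutant mesangial arrays against 922, 1037 and 1123 in wild type arrays. In podocytes it had 1512, 1503 and 1478 against 2108, 1670.4 and 1546, and in endothelial cells 891, 966 and 920.4 against 839.8, 859 and 757. None of these Cd2ap differences passed the adjusted test in limma (adjusted p 0.151, 0.504 and 0.336). Which probes lie in the altered part of the gene is not given in the sources used here, so the signal does not check the genotype labels. All markers of the labelled cell type (8 podocyte, 8 endothelial and 6 mesangial genes) reached 100 on every array of that type, and markers of other cells stood out in several arrays. Wild type mesangial array C held more podocyte, endothelial, tubule and leukocyte marker signal than arrays A and B, with 935 for the endothelial gene Kdr against 77.6 and 81.1 and a sum of 6 tubule markers of 906 against 376.9 and 354. The tubule sum was also high in wild type podocyte array B (809 against 454 and 477), and the sum of 6 leukocyte markers in mutant mesangial array B (676 against 368.7 and 322). In that mesangial array mainly the leukocyte gene Ptprc stood out (361 against 78.7 and 67.3), whereas Lyz2 was at 65.6 against 49.0 and 44.6. Podocyte arrays held endothelial markers in different amounts by genotype, with a summed signal of the 8 markers of 762 to 2579.7 in mutant and 4332 to 5754 in wild type arrays. Xist and the Y-linked gene Ddx3y showed that all 3 mutant mesangial arrays were female against 1 of 3 wild type arrays, that 1 of 3 mutant endothelial arrays was female against all 3 wild type arrays, and that 2 of 3 podocyte arrays were female in both genotypes. Results that changed their call when such an array was left out are given with and without it. Without wild type mesangial array C, 2 of the 27 wild type calls that involve mesangial cells were lost, those of Bmp4 and Smurf1 against podocytes. As these are bulk samples, fewer cells of a type and less RNA per cell cannot be told apart.

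Of the 54 members, 41 reached a signal of 100 on at least 1 of the 18 arrays. The other 13 stayed below it on every array, between 27.4 for Bmp5 and 84.01 for Inhbb. These were the ligands Bmp3, Bmp5, Gdf6, Gdf15 and Inhbb, the receptor Bmpr1b, Smad9, Ltbp2, and the antagonists Grem1, Nog, Chrd, Chrdl1 and Fst. These 5 antagonists were thus below the minimum in all 3 cell types, and their differences were not tested.

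In wild type glomeruli the 3 cell types differed in 22 of the 41 members that could be tested, at an adjusted p under 0.05 and a fold over 1.5 in at least 1 pair of cell types, where 28.7% of all 13523 clusters did. Between mesangial and endothelial cells 8 members were higher in mesangial cells and 8 in endothelial cells, where 8.84% and 7.37% of all clusters were called. Between podocytes and endothelial cells 4 members were higher and 11 lower in podocytes, with backgrounds of 9.15% and 10.8% (20% in all). Between podocytes and mesangial cells 1 member was higher and 10 were lower in podocytes, with backgrounds of 5.49% and 8.33%. With 1 array left out in turn, 8 of these 42 calls were lost at least once, and they are named below.

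In 15 of the 42 calls, those of 8 members, the lower cell type was below 100 on every wild type array. Those members reached the signal minimum through other groups, where they were higher, so the shares of all clusters given above are no measure for these calls. A signal near the array median gives no level in the lower cell type, so their differences are given as bounds against a signal of 100. On this reckoning Bmpr1a was at least 4.52-fold higher in podocytes and at least 4.13-fold higher in mesangial cells than in endothelial cells. Id1 was at least 2.35-fold higher in endothelial cells than in both other types, and Smad6 at least 2.04-fold higher in endothelial than in mesangial cells. Bmp7 was at least 1.73-fold higher in podocytes than in both other types, and Bmp2 at least 1.69-fold higher in mesangial cells than in podocytes. For Gdf11 in mesangial cells, Bmper in endothelial cells and Tgfb3 in mesangial cells the bounds over both other types were 1.36-fold, 1.30-fold and 1.10-fold, under the fold of 1.5. Gdf11, Bmper and Tgfb3 stand in the count of members above only through such calls. The group means stand below as measured.

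**Figure D1:**
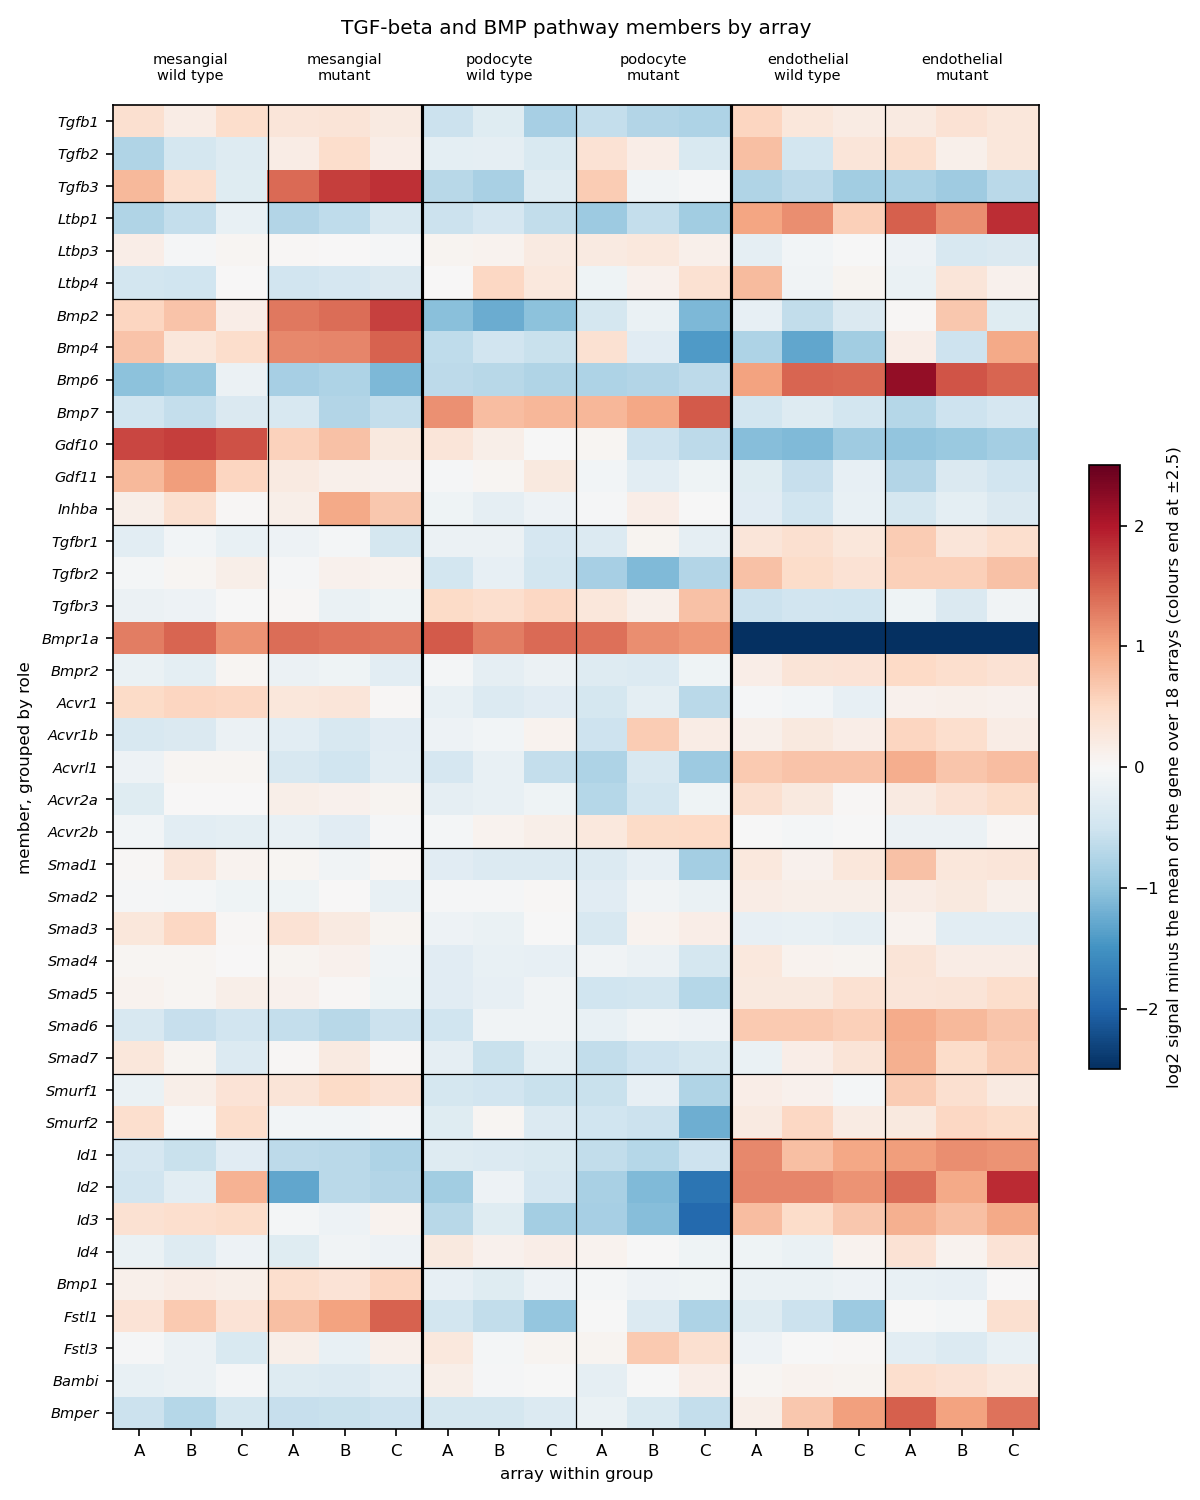
Log2 signal of each of the 41 members that reached a signal of 100 (rows, by role), minus that member's mean over the 18 arrays (columns, by cell type, genotype and array). Colours end at a difference of 2.5 in either direction. The rows of Bmpr1a, Bmp6 and Id1 set the endothelial arrays apart from the others, whereas the mutant and wild type columns of a cell type differ in few rows.

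The ligands were divided among the cell types. Gdf10, a BMP-like ligand also called BMP3b, was highest in mesangial cells (786 ± 38.3, SD, n = 3), intermediate in podocytes (277 ± 29.7) and lowest in endothelial cells (124 ± 9.34), and all 3 steps passed the limma test, with log2 differences of 2.67 for mesangial minus endothelial cells, 1.16 for podocytes minus endothelial cells and -1.51 for podocytes minus mesangial cells. Bmp7, a ligand needed for nephron formation, was highest in podocytes, at 175 ± 24.5 against 66.0 ± 5.51 in mesangial and 69.5 ± 3.80 in endothelial cells. Both of these were below 100 on every array, so the bound above stands. Bmp6 was an endothelial gene, at 427 ± 71.1 against 109.7 ± 39.2 in mesangial cells and 106 ± 3.52 in podocytes, a log2 difference of -1.996 for podocytes minus endothelial cells and -2.002 for mesangial cells minus endothelial cells. Mesangial array C was the highest of its group for Bmp6 (84.9, 89.5 and 155), and without it the mesangial minus endothelial difference was -2.28. The mesangial and podocyte levels of Bmp6 did not differ beyond their spread.

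Bmp2, Bmp4, Tgfb3 and Gdf11 were highest in mesangial cells. Bmp2 was at 171 ± 32.5 in mesangial cells, 93.5 ± 13.1 in endothelial cells and 56.9 ± 4.82 in podocytes. The podocyte signals were below 100 on every array, so the bound above stands for that step. The step between mesangial and endothelial cells (0.87) was lost without endothelial array B, mesangial array A or mesangial array B, and that between podocytes and endothelial cells, where 1 endothelial array reached 100, without any of 5 of the 6 arrays, all but endothelial array B.

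Bmp4 was at 341 ± 53.2 in mesangial cells, 164 ± 9.34 in podocytes and 124 ± 22.6 in endothelial cells. Only its step from endothelial to mesangial cells (1.46, SE 0.36, adjusted p = 0.00662 in limma) held without each of the arrays, and the step between podocytes and mesangial cells (-1.04, adjusted p = 0.0492) was lost on leaving out any wild type array of the pair. Tgfb3 was at 115 ± 42.2 in mesangial cells, with array C lowest, against 58.7 ± 10.7 in podocytes and 52.4 ± 4.01 in endothelial cells. The podocyte and endothelial signals were below 100 on every array, and the call against podocytes was lost without mesangial array A.

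Tgfb1, the most studied TGF-beta isoform, was lower in podocytes (114 ± 20.6) than in mesangial cells (212 ± 19.8) and endothelial cells (212 ± 26.8), with log2 differences of -0.90 and -0.90, and did not differ detectably between the latter 2. Tgfb2 was lower in mesangial than in endothelial cells (log2 difference -0.71, adjusted p = 0.0389 in limma), with wild type signals of 89.0, 112 and 120.0 and 255, 109 and 187. That call rested on endothelial array A, the highest, without which the difference was -0.43 (adjusted p = 0.193), and was also lost without endothelial array C, mesangial array A or mesangial array B. Ltbp1, which anchors latent TGF-beta in the matrix, was an endothelial gene, at 399.9 ± 76.9 against 149 ± 30.5 in mesangial cells and 146 ± 9.49 in podocytes. Without mesangial array C, the highest of its group, the mesangial minus endothelial difference of -1.43 was -1.59.

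Among the receptors the largest difference was that of Bmpr1a, the type I receptor ALK3 for BMP2 and BMP4. Its signals were 28.7, 23.6 and 28.7 in wild type endothelial arrays, 413, 464 and 369.3 in mesangial arrays and 491, 414 and 456 in podocyte arrays. The endothelial values were below the medians of their arrays, so that only the bounds above can be given. Mutant endothelial arrays had 29.3, 30.0 and 24.4. Acvrl1, the endothelial type I receptor ALK1, had the opposite pattern, at 382 ± 10.1 in endothelial cells, 235 ± 16.7 in mesangial cells and 181 ± 26.1 in podocytes.

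The other receptor differences were smaller. Tgfbr2, the type II receptor for TGF-beta, was lower in podocytes than in endothelial cells (log2 difference -0.90), and Tgfbr3, the co-receptor betaglycan, was higher (0.98). Acvr1, the type I receptor ALK2, was highest in mesangial cells, with log2 differences of 0.61 for mesangial minus endothelial cells and -0.78 for podocytes minus mesangial cells. The former fell to 0.55, under the fold of 1.5, without endothelial array C. For Tgfbr1, Bmpr2, Acvr1b, Acvr2a and Acvr2b no pair of cell types passed both thresholds.

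Id1, Id2, Smad6 and Bmper, which respond to or restrain BMP signals, were highest in endothelial cells. Id1, an inhibitor of basic helix-loop-helix factors, was at 237 ± 36.3 in endothelial cells against 90.0 ± 8.74 in mesangial cells and 94.4 ± 1.66 in podocytes. Id2 was at 384, 383 and 357 in endothelial arrays, 117, 137 and 298 in mesangial arrays and 89.1, 151 and 122 in podocyte arrays, so that mesangial array C, the one with podocyte and endothelial markers, stood closer to the endothelial values than arrays A and B. Its mesangial minus endothelial difference of -1.15 was lost without mesangial array A (-0.89) or B (-1.003), whereas podocytes stayed below endothelial cells (-1.67). Id3 was lower in podocytes than in either other cell type, with log2 differences of -1.03 against mesangial and -1.24 against endothelial cells.

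The inhibitory Smad6 was higher in endothelial cells (204 ± 4.71) than in mesangial cells (94.02 ± 5.72) and podocytes (113 ± 17.6), and no other Smad passed both thresholds in any pair. Bmper, a secreted BMP-binding protein of endothelial precursors, was at 134 ± 39.6 in endothelial cells and below 100 on every array of the other 2 cell types. Fstl1, a secreted follistatin-like protein, was highest in mesangial cells (509 ± 66.1), and Smurf1 was lower in podocytes than in mesangial cells (log2 difference -0.59), at the edge of the fold of 1.5 and under it without mesangial array B or C or podocyte array C (-0.47 without mesangial array C).

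Mutant mesangial cells had higher signals of 3 ligands, Tgfb2, Bmp2 and Bmp4, and a lower signal of another, Gdf10, than wild type mesangial cells. Bmp2 was 1.998-fold, Bmp4 1.76-fold and Tgfb2 1.71-fold the wild type level, and Gdf10 was at 0.453 of it. These 4 were the members with an adjusted p under 0.05 in limma among 34 tested, 3 higher and 1 lower, where 1.25% and 1.68% of all 11457 clusters were called. The study screened its arrays at a p under 0.05 and a fold over 1.5, without saying whether the p was adjusted. By this screen with an unadjusted p, 5 members were higher (Tgfb2, Tgfb3, Bmp2, Bmp4 and Fstl1) and 3 lower (Gdf10, Gdf11 and Id2), where 2.08% and 3.12% of all clusters were. The median log2 difference of the 34 members was -0.04, against -0.02 for all clusters. With all 18 arrays in 1 fit 4 members had an adjusted p under 0.05 (Bmp2, Gdf10, Tgfb3 and Gdf11), where 4.19% of all clusters did.

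**Figure D2:**
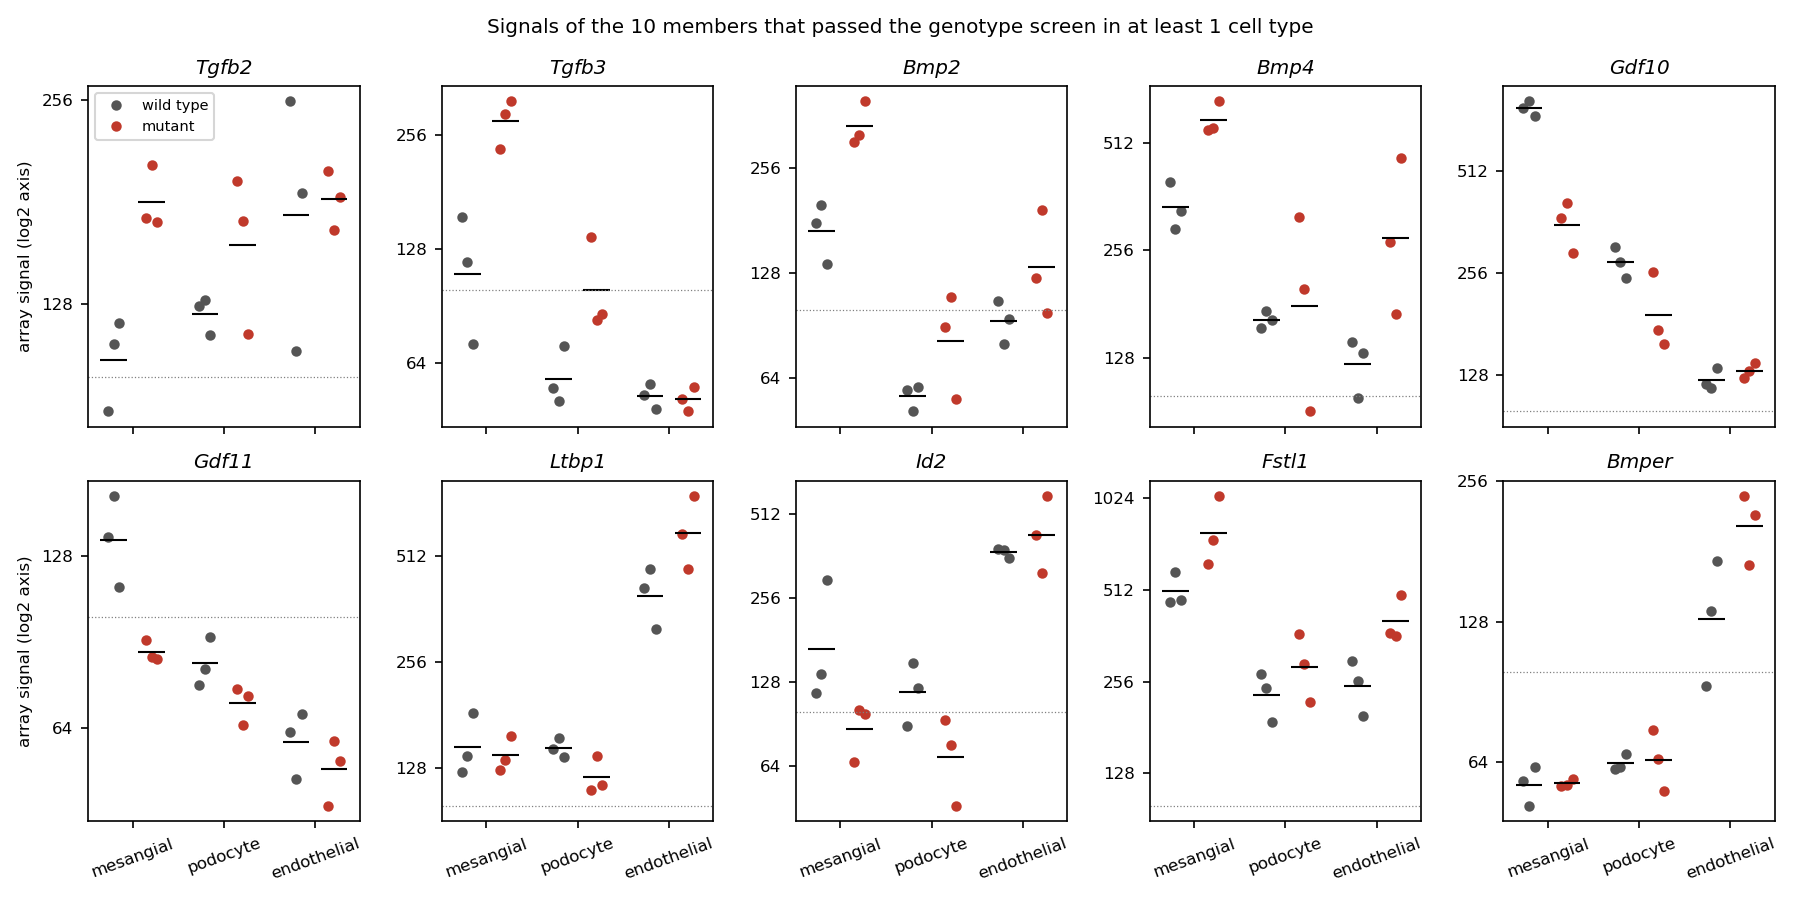
Signal (log scale) of the 10 members that passed the genotype screen in at least 1 cell type, on each array, grey for wild type and red for mutant, with a bar at the geometric mean of each group of 3 and a dotted line at the minimum of 100. In mesangial cells the mutant arrays of Tgfb2, Tgfb3, Bmp2, Bmp4 and Fstl1 lie above all wild type arrays and those of Gdf10, Gdf11 and Id2 below them.

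Among the TGF-beta ligands, Tgfb2 had signals of 172, 206 and 169 in mutant mesangial arrays and 89.0, 112 and 120.0 in wild type arrays. The lowest mutant array lay above the highest wild type array, and the difference was 0.77 (SE 0.14, adjusted p = 0.0426 in limma). Leaving out 1 array in turn kept it at 0.65 to 0.86, but the adjusted p rose above 0.05 without any of mutant arrays A, B and C and wild type arrays A and B (up to 0.141). Tgfb3 had signals of 236, 292 and 315 in mutant and 156, 118 and 71.8 in wild type arrays.

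The Tgfb3 groups did not overlap either, and its difference of 1.34 (SE 0.28), a 2.54-fold level, missed the adjusted threshold (adjusted p = 0.0595 in limma). Its wild type spread came mainly from array C, the lowest and the array with podocyte and endothelial markers. Without that array the Tgfb3 difference was 1.04 with an adjusted p of 0.043 in limma, and over all omissions of 1 array it ran from 1.04 to 1.60 with adjusted p-values up to 0.173. Tgfb1 had a difference of -0.05 (95% interval -0.29 to 0.18). The matrix anchors Ltbp1, Ltbp3 and Ltbp4 had differences between -0.10 and -0.06, none past a threshold.

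Among the BMPs, Bmp2 had signals of 304, 319.5 and 398 in mutant and 178, 200.01 and 136 in wild type mesangial arrays. Every mutant array was above every wild type array, with a difference of 0.998 (SE 0.17, adjusted p = 0.0381 in limma). Bmp4 had signals of 558, 562 and 669 and 399, 294 and 329.5, again without overlap, and a difference of 0.81 (SE 0.14, adjusted p = 0.0369). Their sizes held when arrays were left out (0.84 to 1.12 and 0.71 to 0.93), and the adjusted calls did not. That of Bmp2 was lost without any array but wild type array C (adjusted p up to 0.113), and that of Bmp4 without any array but wild type array A (up to 0.115).

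Gdf10 moved the other way. Its signals were 373, 412 and 294 in mutant and 789, 823 and 747 in wild type mesangial arrays, so that the highest mutant array was far below the lowest wild type array. The difference of -1.14 (SE 0.14, adjusted p = 0.0141 in limma) was the lowest of the 34 members, and it ran from -1.25 to -1.003 when arrays were left out, with adjusted p-values of 0.0527 without mutant array A and 0.068 without wild type array B. Gdf11, a ligand close to myostatin, had signals of 91.1, 85.2 and 84.7 against 138, 162 and 113, without overlap. It reached 100 in the wild type arrays only, so it was tested through the group where it was high. Against a signal of 100 the wild type level was at least 1.36-fold higher, and the difference as fitted was -0.65 (adjusted p = 0.0628 in limma; -0.78 and 0.0243 without wild type array C). Without wild type array B it was -0.52, short of the screen. Of the 34 members, 3 reached the minimum through 1 genotype only, Gdf11 and Ltbp4 through wild type arrays and Inhba, the activin A subunit, through mutant array B.

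Promoters are shown for 4 members with separate mutant and wild type mesangial signals, Tgfb2 and Bmp4 with higher and Gdf10 and Id2 with lower mutant values, so that the sequence at a listed start site stands beside the data. They are RefSeq sequences on GRCm38.p6, 250 bases before to 50 after a start site, 5′ to 3′ on the gene's strand. The first window listed for a gene was used, and 38 of the 54 members had an entry. The windows of Bmp4, Gdf10 and Id2 lie at the start of the gene's span. That of Tgfb2 lies inside its span (chr1:186622787-186709697) and not at the outer start. Bmp2 and Tgfb3 had none. Capitals mark CAGAC, a core Smad-binding motif searched on both strands (GTCTG on the other), and GGCGCC, a GC-rich box bound by BMP Smads that reads the same on both strands. The 2 motifs can share a base. Tgfb2 lies on the minus strand at chr1:186705940-186706239 with 2 CAGAC matches, Bmp4 on the minus strand at chr14:46390620-46390919 with neither motif, Gdf10 on the plus strand at chr14:33923337-33923636 with 1 match of each, and Id2 on the minus strand at chr12:25096043-25096342 with 1 GGCGCC match.
Tgfb2: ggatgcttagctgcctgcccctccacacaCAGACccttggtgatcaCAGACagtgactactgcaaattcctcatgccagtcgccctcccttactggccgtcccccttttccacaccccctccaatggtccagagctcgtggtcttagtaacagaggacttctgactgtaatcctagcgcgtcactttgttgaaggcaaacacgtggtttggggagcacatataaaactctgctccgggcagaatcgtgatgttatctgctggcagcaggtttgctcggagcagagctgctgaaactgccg
Bmp4: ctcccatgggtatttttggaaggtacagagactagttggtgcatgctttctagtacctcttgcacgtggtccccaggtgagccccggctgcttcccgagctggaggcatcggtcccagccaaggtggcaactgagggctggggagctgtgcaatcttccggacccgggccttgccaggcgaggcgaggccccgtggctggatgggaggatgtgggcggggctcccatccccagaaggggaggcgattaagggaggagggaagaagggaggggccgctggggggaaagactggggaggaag
Gdf10: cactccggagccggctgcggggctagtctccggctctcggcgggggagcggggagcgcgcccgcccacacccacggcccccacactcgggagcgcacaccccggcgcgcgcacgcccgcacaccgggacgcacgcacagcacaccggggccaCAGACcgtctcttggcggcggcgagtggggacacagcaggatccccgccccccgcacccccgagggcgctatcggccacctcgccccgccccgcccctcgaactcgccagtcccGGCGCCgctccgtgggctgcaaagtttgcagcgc
Id2: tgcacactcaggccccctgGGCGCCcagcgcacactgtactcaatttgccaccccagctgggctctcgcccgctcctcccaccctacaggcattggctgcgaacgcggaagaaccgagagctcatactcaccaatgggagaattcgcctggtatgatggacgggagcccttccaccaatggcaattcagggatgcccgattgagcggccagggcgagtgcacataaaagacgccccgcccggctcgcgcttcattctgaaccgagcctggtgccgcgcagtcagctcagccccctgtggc

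CAGAC was found in 18 of the 38 member promoters (47.4%) and in 49.7% of all 27025 promoters of this length, and GGCGCC in 12 of 38 (31.6%) and 12.0%. These are counts of letters in the windows and not of bound sites.

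None of the 8 receptors and 6 Smads tested in mesangial cells passed the genotype screen. The receptor differences ran from -0.38 for Acvrl1 (adjusted p = 0.0977 in limma) and -0.31 for Acvr1 to 0.20 for Acvr2a, a type II receptor for activins. The Smad differences ran from -0.13 to 0.09, and for Smad4, the Smad shared by both branches, the 95% interval was -0.21 to 0.19. Smurf2 had a difference of -0.34 and Smurf1 one of 0.29, both short of the screen. With 1 array left out Smurf1 ran from 0.16 to 0.41 and Acvr2a from 0.10 to 0.25. Each was lowest without wild type array A and highest without wild type array C.

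Id2 and Id3 had mutant mesangial signals below all wild type ones. Id3 gave 258, 243 and 284 in mutant and 346, 357 and 365 in wild type arrays, without overlap, with a difference of -0.45 (SE 0.09, adjusted p = 0.0528 in limma), under the fold of the screen. Id2 gave 66.4, 102 and 98.0 and 117, 137 and 298. Wild type array C set much of the Id2 value of -0.95 (SE 0.36, adjusted p = 0.197). Without that array it was -0.54, without mutant array A -0.75 and without mutant array C -1.03, and in none of these cases did it pass the screen. Among the extracellular modulators Fstl1 had signals of 625, 745 and 1039 against 468, 585 and 473, a difference of 0.63 (adjusted p = 0.139 in limma). It left the screen at 0.43 without mutant array C, the highest, and at 0.58 without wild type array A. Bmp1, a metalloprotease that processes procollagen and cleaves BMP antagonists, had 171, 162 and 185 against 139, 146 and 140.5 (0.28, adjusted p = 0.129).

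Over the 34 members the mutant and wild type mesangial arrays did not overlap for 7 members with higher and 8 with lower mutant signals, where 12.3% and 16.3% of all clusters had such groups. Markers of other cells were measured in the same arrays. The 6 mesangial markers summed to 6396 to 7052 in mutant and 8356 to 9339 in wild type arrays, the 5 smooth muscle and juxtaglomerular markers to 1592 to 2892 and 1326 to 1609, and the 8 podocyte markers to 664 to 698 and 653 to 4024, the upper wild type value being array C. At most 4 of the 8 podocyte markers reached 100 on a mutant array. Wild type array A was the only female wild type mesangial array, so a sex term in the fit leaves the 3 mutant arrays minus that array, which tests an arm of 1 array. As values without a test, these differences were 1.03 for Tgfb2, 0.93 for Bmp2, 0.58 for Bmp4, 0.84 for Tgfb3, -0.42 for Id2 and -1.15 for Gdf10. Sex and genotype can hardly be told apart in these arrays, and the part of other cells in these results was not tested beyond these values.

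**Figure D3:**
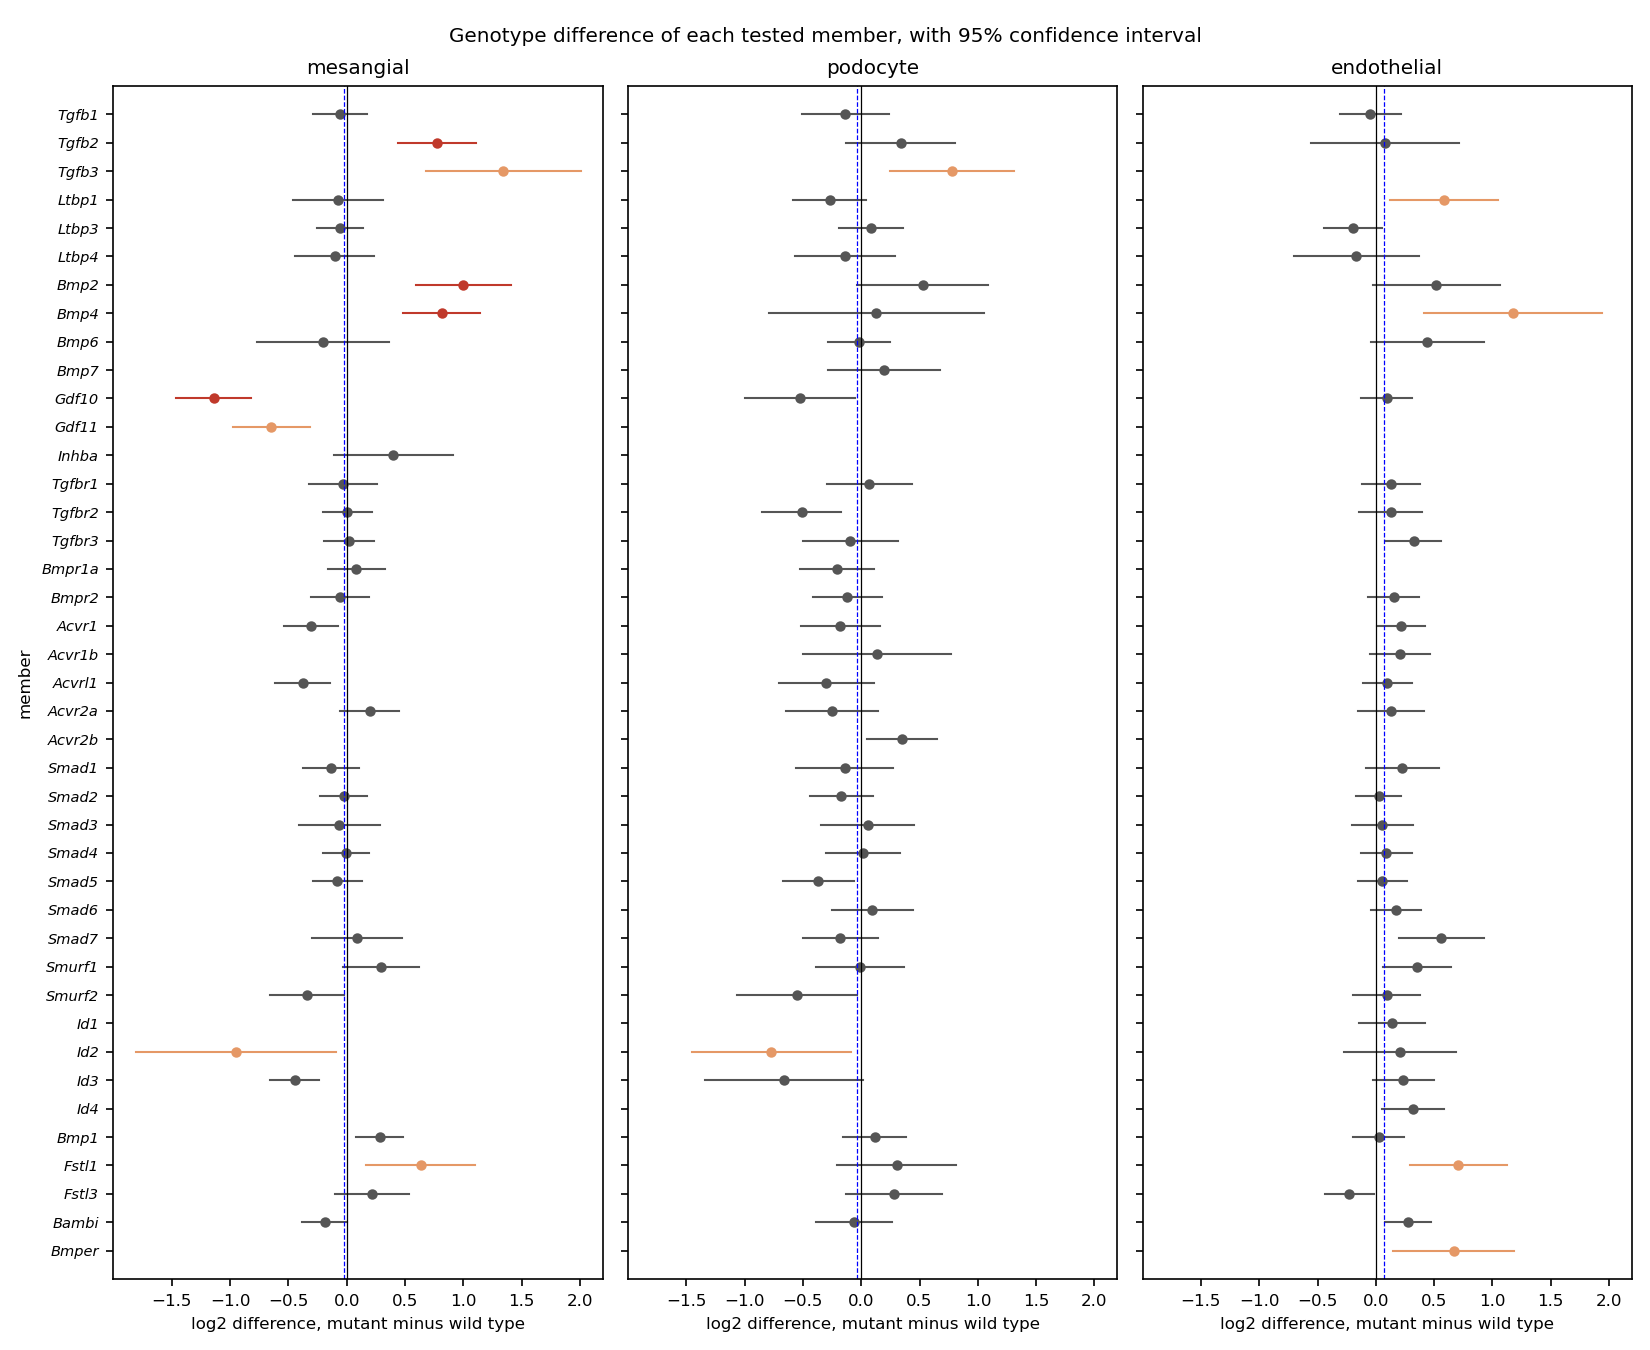
Log2 difference, mutant minus wild type, of each tested member in the 3 cell types, with 95% intervals, by role. Red marks an adjusted p under 0.05, orange members that passed the screen only, grey the others, and the dashed blue line is the median of all clusters. Red points appear in the mesangial panel alone (Tgfb2, Bmp2, Bmp4 and Gdf10), and most endothelial points lie right of 0.

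In podocytes, the cell type in which CD2AP acts at the slit diaphragm, few members differed between genotypes. Of 36 members tested among 12113 clusters, Tgfb3 passed the screen with higher and Id2 with lower mutant signals, where 1.26% and 4.34% of all clusters did. Tgfb3 reached the signal minimum in mutant arrays only and Id2 in wild type arrays only. Each was thus tested through the group where it was high, so the shares of all clusters are no measure for these calls. No member had an adjusted p under 0.05 in limma, where 0.0495% of clusters were called higher and 0.00826% lower, and 7 members had an unadjusted p under 0.05, as did 14.3% of all clusters. When all 18 arrays shared 1 estimate of the spread, 3 members had an adjusted p under 0.05, namely Tgfbr2, Acvr2b and Smad5, where 6.91% of all clusters were called.

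Tgfb3 had podocyte signals of 138, 82.9 and 86.2 in mutant and 54.7, 50.6 and 70.8 in wild type arrays. The groups did not overlap, but only mutant array A reached 100, so the gene was tested through the group where it is high and no bound on its fold can be given. Its difference as fitted was 0.78 (SE 0.23, adjusted p = 0.213 in limma), and without mutant array A it was not tested. Bmp2 likewise reached 100 on a single array, mutant B, with 89.7, 109 and 55.7 against 59.2, 51.3 and 60.1. These overlapped, and the difference was 0.53 (adjusted p = 0.373), or 0.80 without mutant array C.

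Bmp4 spread widely among the mutant podocyte arrays, with 317, 200.2 and 90.9 against 155, 174 and 163 in wild type arrays. The mutant values lay on both sides of the wild type ones, and the difference was 0.13 (95% interval -0.80 to 1.06). It was 0.62 without mutant array C and -0.28 without mutant array A. Tgfb2 had 194, 170.1 and 116 against 127, 129.8 and 115, with overlap, and a difference of 0.34, which was 0.18 without mutant array A and 0.55 without mutant array C. Gdf10 had 259, 173 and 157 against 306, 277 and 247, with mutant array A inside the wild type range, and a difference of -0.52 (adjusted p = 0.319). That difference was -0.74 without mutant array A and -0.38 without mutant array C. Bmp7, the ligand characteristic of these podocytes, had 163, 180.2 and 266 against 203, 158 and 163 and a difference of 0.19 (95% interval -0.29 to 0.68), near 0 without mutant array C (-0.02).

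Id2 had podocyte signals of 93.8, 75.9 and 46.0 in mutant and 89.1, 151 and 122 in wild type arrays. Mutant array A lay above the lowest wild type array, and the difference of -0.77 (SE 0.29, adjusted p = 0.308 in limma) no longer passed the screen without mutant array C (-0.48), wild type array B (-0.59) or wild type array C (-0.75). Id2 reached 100 in wild type arrays only, at least 1.18-fold higher against a signal of 100. Id3 had 150.3, 127 and 69.7 against 165, 217 and 148, with overlap, and a difference of -0.66 (adjusted p = 0.358). That of Id3 was -0.34 without mutant array C and -0.89 without mutant array A. The receptor Tgfbr2 had 159, 132 and 169.5 against 205, 244 and 206, without overlap, and a difference of -0.51 (SE 0.15, adjusted p = 0.213).

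The other receptor and Smad differences of podocytes ran from -0.37 for the BMP Smad Smad5 to 0.35 for the activin receptor Acvr2b, which was again above 100 in mutant arrays only. Smurf2 had a difference of -0.55 (adjusted p = 0.327), or -0.32 without mutant array C and -0.67 without mutant array A. The median difference of the 36 members was -0.08, against -0.04 for all clusters, and the groups did not overlap for 2 members with higher and 4 with lower mutant signals, where 6.97% and 14.3% of clusters had such groups. In all, 6 members were tested through 1 genotype only, Tgfb3, Bmp2, Acvr1b and Acvr2b through mutant arrays and Smad7 and Id2 through wild type arrays.

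**Figure D4:**
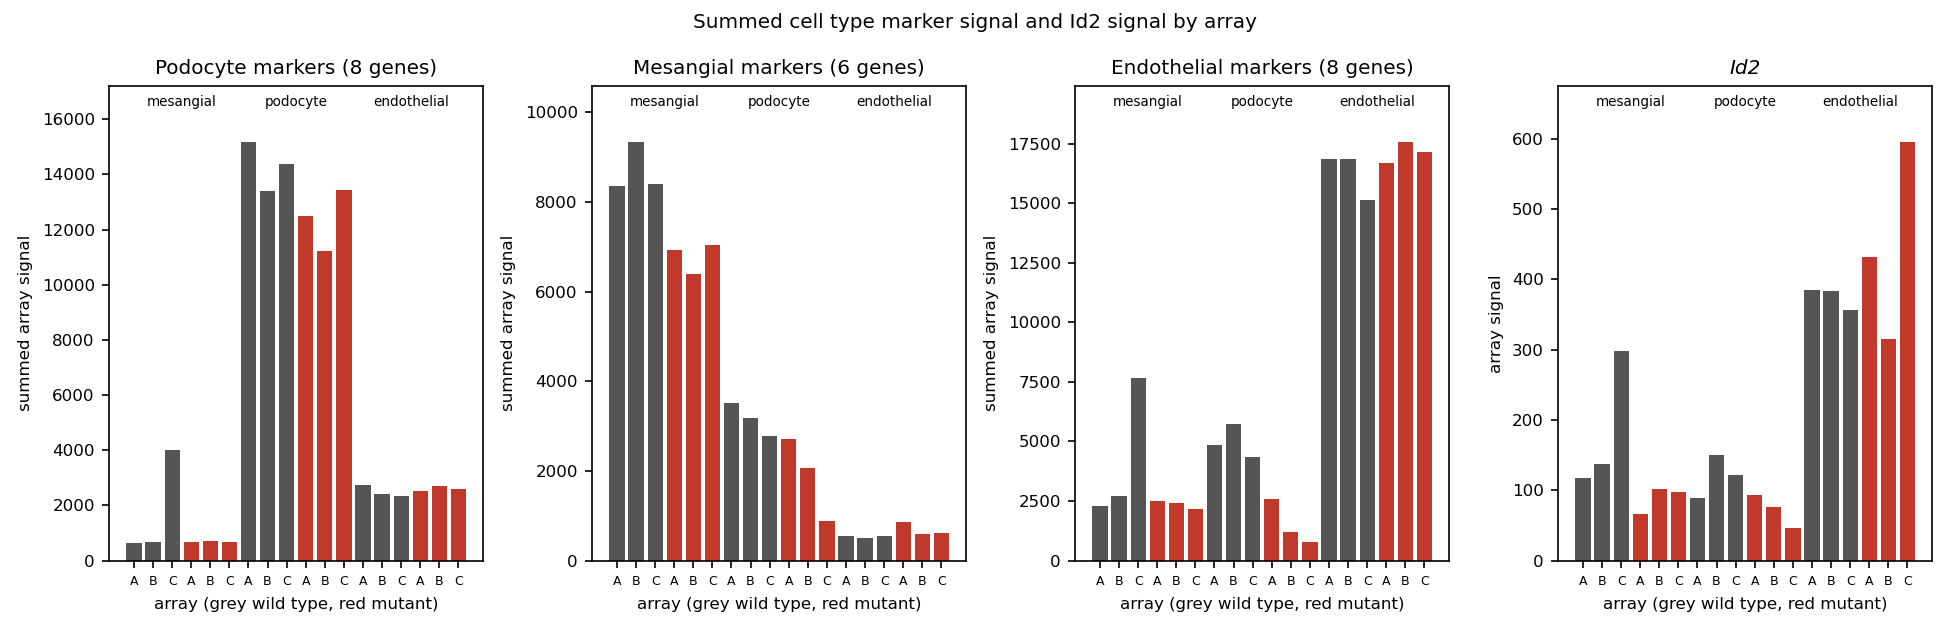
Summed signal of the podocyte, mesangial and endothelial marker lists, and the signal of Id2, on each of the 18 arrays, by cell type and genotype. Podocyte arrays of the mutant carry less endothelial and mesangial marker signal than wild type podocyte arrays, and wild type mesangial array C carries more podocyte and endothelial marker signal than the other mesangial arrays.

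Id2, Id3 and Tgfbr2 were each higher in wild type endothelial cells than in podocytes, and the podocyte arrays differed by genotype in endothelial markers. All 8 endothelial markers reached 100 on each wild type podocyte array and 4 to 7 did on the mutant ones, with the sums given above. The endothelial gene Cdh5 was at 391, 277 and 123 in mutant and 813, 929 and 696 in wild type podocyte arrays. The 6 mesangial markers summed to 883 to 2710.3 and 2778 to 3505, and the 5 smooth muscle and juxtaglomerular markers to 1022 to 2970.2 and 766 to 783. Mutant array C had the lowest signal of Cdh5, Id2, Id3, Bmp2 and Bmp4 among the 3 mutant arrays but the highest of Tgfbr2. The part of other cells in the podocyte differences was not tested.

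In endothelial cells 4 of 35 members passed the genotype screen and none the adjusted test. Differences were positive for 31 members and negative for 4, where 64.9% of all 11330 clusters had positive ones, and the median was 0.15 against 0.07 for all clusters. The screen found 4 members higher, Bmp4, Fstl1, Bmper and Ltbp1, and 0 lower, where 2.96% and 0.865% of all clusters were. No member had an adjusted p under 0.05 in limma, where 1.21% of clusters were called higher and 0.0794% lower, and 11 members had an unadjusted p under 0.05, as did 18.5% of all clusters.

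Bmp4 had endothelial signals of 269.9, 170.0 and 466 in mutant and 142, 98.9 and 132 in wild type arrays. The groups did not overlap, though mutant array C was far above arrays A and B, and the difference was 1.18 (SE 0.33, 2.26-fold, adjusted p = 0.14 in limma). It ran from 0.80 without mutant array C to 1.53 without mutant array B, and in the latter case the adjusted p was 0.0344. Mutant array C was also the only female array among the mutant endothelial arrays.

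Fstl1 had signals of 371, 360.1 and 493 against 299, 257 and 198, without overlap, and a difference of 0.71 (SE 0.18, adjusted p = 0.113 in limma). It was 0.56 without mutant array C and 0.54 without wild type array C, each time short of the screen. Bmper had 238, 169.6 and 216 against 93.4, 135 and 173, where mutant array B fell just below wild type array C, and a difference of 0.67 (adjusted p = 0.193). Bmper left the screen without mutant array A (0.56), mutant array C (0.63) or wild type array A (0.43). Ltbp1, the latent TGF-beta anchor, had 588, 469.8 and 754 against 415, 468 and 317, groups that were apart only by the gap between mutant array B and wild type array B. Its difference was 0.59 (adjusted p = 0.197), close to the fold of the screen, and 0.41 without mutant array C and 0.43 without wild type array C.

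The inhibitory Smad7, itself a target of the pathway, had 246, 184 and 207 in mutant and 118, 149 and 166 in wild type endothelial arrays, without overlap, and a difference of 0.56 (SE 0.16, adjusted p = 0.141 in limma), short of the fold of the screen. The other Smads had differences between 0.03 and 0.23, and the receptors between 0.10 for Acvrl1 and 0.33 for Tgfbr3. All 4 Id genes had positive differences, from 0.14 for Id1 to 0.32 for Id4, and that of Id2 was -0.02 without mutant array C. Bambi, a receptor without a kinase domain that competes with type I receptors, had 168, 162 and 151 against 131, 135 and 132, without overlap, and a difference of 0.27.

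The remaining ligands of endothelial cells did not pass the screen. Bmp2 had 124, 194 and 98.2 against 106, 79.9 and 94.4, with overlap, and a difference of 0.52 that was 0.25 without mutant array B and 0.74 without mutant array C. Bmp6, the endothelial ligand, had 786, 510.3 and 472 against 345, 471 and 465, apart only by the gap between mutant array C and wild type array B, and a difference of 0.44 (adjusted p = 0.303 in limma), or 0.22 without mutant array A. Tgfb2 had 202, 165 and 184 against 255, 109 and 187, with wild type arrays A and B outside the mutant range on either side, and its sign turned without wild type array B (-0.26). Gdf10 had 125, 131 and 139 against 119.8, 117 and 134 and a difference of 0.09 (95% interval -0.13 to 0.31). Tgfb3 stayed below 100 on all 6 endothelial arrays (47.7 to 55.2 in mutant, 48.3 to 56.3 in wild type) and was not tested.

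The mutant and wild type endothelial arrays did not overlap for 12 members with higher and 1 with lower mutant signals, where 17.7% and 7.34% of all clusters had such groups. Only 1 member, Id4, was tested through a mutant array only. Bmp4 and Fstl1 were both higher in wild type mesangial than endothelial cells, so the mesangial markers of these arrays are given beside them. The 6 markers summed to 587 to 861 in mutant and 501 to 559 in wild type endothelial arrays. Of these markers Serpine2, a protease inhibitor, was at 467, 177 and 251 against 119, 95.4 and 131, and Itga8 (49.7 to 66.3 against 61.3 to 96.4) and Pdgfrb (51.2 to 55.4 against 53.2 to 65.0) were below 100 in both genotypes. The 6 leukocyte markers summed to 637, 468 and 344 in mutant and 352 to 406 in wild type endothelial arrays, and 3, 2 and 0 of them reached 100 on the mutant arrays and 0 on the wild type ones. Mutant array A, with the highest leukocyte sum, was also the highest for Bmp6 and Smad7. The part of mesangial cells and leukocytes in the endothelial differences was not tested beyond these values.

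The genotype differences were then compared between cell types in a fit of all 18 arrays. For 1 of 41 members, Gdf10, the difference itself passed. Its endothelial minus mesangial contrast of genotype effects was 1.23 (SE 0.23, adjusted p = 0.0141 in limma), with a mesangial effect of -1.14 and an endothelial effect of 0.09, where 1.07% of all clusters were called and 14 members had an unadjusted p under 0.05, as did 15.9% of clusters. It ran from 1.10 to 1.34 with each of the 12 arrays left out in turn, and its adjusted p from 0.0163 to 0.0378. Between podocytes and mesangial cells the Gdf10 contrast was 0.62 (adjusted p = 0.263). Wild type endothelial Gdf10 signals were only 117 to 134, close to the signal minimum. A fall to 0.453 of the wild type level, as in mesangial cells, would have ended below that minimum. Such a fall could not have been measured in full in endothelial cells, which limits the endothelial minus mesangial contrast.

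No member passed between podocytes and mesangial cells or between endothelial cells and podocytes, where 0.717% and 2.11% of all clusters were called. At an unadjusted p under 0.05 there were 5 and 17 members, beside 12% and 23.4% of all clusters. Tgfbr2 had an endothelial minus podocyte contrast of 0.64 (adjusted p = 0.0573 in limma). For Tgfb3, below 100 on all endothelial arrays, no contrast with them is given. The rise of Tgfb2, Bmp2 and Bmp4 in mesangial cells was therefore not shown to differ from the values in the other cell types. For Bmp4 the genotype differences were 0.81 in mesangial cells, 0.13 in podocytes and 1.18 in endothelial cells, and for Bmp2 0.998, 0.53 and 0.52. For Tgfb2 they were 0.77, 0.34 and 0.08.

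A further 92 genes around the pathway were read from the same fits: 28 other ligands and extracellular regulators, 7 other receptors, 15 genes of latent TGF-beta activation and matrix binding, 16 intracellular regulators, 16 TGF-beta responsive genes and 10 BMP responsive genes. In mesangial cells 48 were tested, and 5 were higher and 0 lower in the mutant at an adjusted p under 0.05 in limma, beside 1.25% and 1.68% of all clusters. These were Thbs1 and Lrrc32 of latent TGF-beta activation (2 of 11 tested), Skil and Wwp1 of the intracellular regulators (2 of 15) and Fn1 of the TGF-beta responsive genes (1 of 12). Wild type Fn1 and Lrrc32 were below 100 on all 3 arrays, so these 2 were tested through the mutant arrays, where they were high. They stand in the counts of this paragraph, but the shares of all clusters are no measure for them. No gene passed among the 3 other ligands, 4 receptors and 3 BMP responsive genes that could be tested. By the screen 8 of the 48 were higher and 0 lower, beside 2.08% and 3.12% of all clusters, with a median difference of 0.09 against -0.02. Among the 8 were Acta2 and Tagln, which are also on the smooth muscle list above, and the mutant and wild type Tagln arrays overlapped.

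Thbs1, thrombospondin 1, an activator of latent TGF-beta, had mesangial signals of 706, 1265 and 1318 in mutant and 256, 139.6 and 217 in wild type arrays, and Fn1, fibronectin, had 231, 541 and 574 and 69.6, 64.8 and 90.2. Both were without overlap. The Thbs1 difference was 2.42 (SE 0.31, adjusted p = 0.0169 in limma) and ran from 2.16 to 2.71 with each array left out in turn. Against a signal of 100, mutant Fn1 was at least 4.15-fold higher, and Lrrc32, the membrane dock of latent TGF-beta, at least 1.30-fold higher. Wwp1, a ubiquitin ligase related to the Smurfs, rose by 0.86, and Skil, a Smad co-repressor, by 0.50. The adjusted p of Thbs1 exceeded 0.05 without mutant array B or C or wild type array B (up to 0.0779), and that of Fn1 without mutant array B or C or wild type array A or B. For Lrrc32 it did so without any array but wild type C, for Wwp1 without mutant B or C or wild type A or B, and for Skil without any of the 6 arrays (up to 0.144).

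In podocytes 50 of the 92 were tested and none had an adjusted p under 0.05 in limma, while 13 had an unadjusted p under 0.05, beside 14.3% of all clusters. The TGF-beta responsive Ctgf, Fn1 and Acta2 were among those higher by the screen, and Eng, Itgb8, Tab2 and Snai2 lower, with the shares of all clusters passing it given above (1.26% and 4.34%). Podocyte Fn1 reached 100 in mutant arrays only (143, 227 and 73.6 against 74.5, 68.1 and 72.7), and mutant array C lay inside the wild type range for Fn1 and for Acta2 (1050.3, 781 and 247 against 266, 264 and 209). The smooth muscle actin gene Acta2 is also on the smooth muscle list above. In endothelial cells 47 were tested and 3 rose at an adjusted p under 0.05, against 1.21% of all clusters. Bgn, the matrix proteoglycan biglycan, had 630.2, 280.1 and 457 in mutant and 101, 135 and 84.3 in wild type arrays, without overlap (2.05, SE 0.29, adjusted p = 0.0182 in limma). Cdkn1a, the cell cycle inhibitor p21, had 676, 688 and 526 against 335, 281 and 286, again without overlap (1.06, adjusted p = 0.0105).

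Pmepa1, a TGF-beta induced membrane protein that binds Smads, rose by 0.58 in endothelial cells (adjusted p = 0.0277 in limma). By the screen 6 of the 47 were higher and 1, the BMP and Notch responsive Hey2, lower, beside 2.96% and 0.865% of all clusters, with a median difference of 0.14 against 0.07. The calls of Bgn were lost without mutant array A or C or wild type array C (adjusted p up to 0.0972), those of Cdkn1a without mutant array A or wild type array B or C, and that of Pmepa1 without any array but wild type array A. Cdkn1a also answers to signals other than TGF-beta, and Bgn was measured here as a binder of TGF-beta rather than a response to it.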

How the data were processed

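The members, gene lists and tests were chosen with earlier results of these data known. The authors' table held RMA signals per transcript cluster for 18 arrays, deposited as linear intensity, with cell type and genotype in the column names but no replicate numbers. Its 18 columns headed as normalized were not used. The series record names Exon arrays and GeneBASE software, whereas the file header and the methods name Gene 1.0 ST arrays, the sample records RMA in Expression Console and the methods GeneSpring. RMA makes the arrays comparable in distribution, so a difference is relative to the other genes of the array. Here the log2 of each signal entered linear models with moderated variances (limma 3.58.1, R 4.3.3), per cell type for genotype (6 arrays) and over 18 arrays for cell types and for differences of genotype effects.

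Clusters with a signal of at least 100 on at least 1 array of a comparison were tested. P-values were adjusted over all of these clusters by Benjamini-Hochberg. The minimum of 100 follows the methods, which for the arrays do not say how many must reach it. The screen was an unadjusted p under 0.05 and a fold over 1.5. Members named by rule were those that passed the screen or had an adjusted p under 0.05 in a genotype comparison or a contrast of genotype effects, with Tgfb2, Tgfb3, Bmp2 and Bmp4. Other members and genes given with values were chosen after these were seen. Of the 54 chosen clusters 4 carried a second gene symbol (those of Tgfbr2, Chrd, Fst and Fstl3). The fits were tested on simulated data. Alternatives were other signal minima, 1 fit of all 18 arrays, eBayes with trend and robust estimation, median and quantile normalization, clusters of a single symbol, and each array left out. Sex of the arrays as a term and Xist-positive arrays alone were added after the data were seen, as were the bounds against a signal of 100 (geometric mean of the higher group over 100). The number of arrays limits the precision, and the RNA-seq data of the study were not analysed here. A few items of the series are not reported here.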

Additional observations from a re-analysis of the deposited data

Results flagged for a closer look

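For Gdf10 the genotype effect differed between endothelial and mesangial cells by a test of the difference itself. The contrast of genotype effects, endothelial minus mesangial, was 1.23 on the log2 scale (SE 0.23, adjusted p = 0.0141 in limma), and the 3 mutant mesangial arrays (373, 412 and 294) were all below the wild type ones while the mutant and wild type endothelial arrays overlapped. The wild type endothelial signals (117 to 134) were close to the signal minimum. A fall of the mesangial size would have ended below that minimum and could not have been measured in full in endothelial cells. What lies behind the difference in genotype effects, the low endothelial signal included, was not tested.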

How the results depend on the processing

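No paired analysis was possible because the columns carry no replicate numbers and the labels do not tie an array of one genotype to an array of the other. The number of mesangial members with an adjusted p under 0.05 (4) was 7 with a minimum of 100 in all 3 arrays of a genotype and 7 with trend and robust estimation, in both cases with Tgfb3, Gdf11 and Id3 added. It was 1 with no minimum, 0 with sex as a term and 0 in Xist-positive arrays alone, and 0 to 5 with 1 array left out (0 without mutant array A or wild type array B). Both sex settings, chosen after seeing the data, set the mutant arrays against wild type array A alone, so they are 1 comparison with an arm of 1 array and say nothing of stability. With all 18 arrays in 1 fit the count was 4, with Tgfb3 and Gdf11 in the place of Tgfb2 and Bmp4. The 5 mesangial members higher by the screen were 3 in Xist-positive arrays alone and 4 to 6 with 1 array left out.

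In podocytes the 1 higher and the 1 lower member became 0 and 0 with the minimum in all 3 arrays, and the lower count was 2 with all 18 arrays in 1 fit and 2 with trend and robust estimation. With 1 array left out the higher count was 0 to 3 (3 without mutant array C, 0 without mutant array A) and the lower count 0 to 4 (4 without mutant array A, 0 without mutant array C or wild type array B). The count with an adjusted p under 0.05 (0) was 3 in the 18-array fit. In endothelial cells the 4 higher members were 2 after quantile normalization and 2 to 5 with 1 array left out, and the adjusted count (0) was 0 to 1, Bmp4 passing without mutant array B. The contrasts of genotype effects gave 2 members in place of 1 between endothelial and mesangial cells (Bambi added) and 5 in place of 0 between endothelial cells and podocytes when array medians were subtracted, which moved arrays by up to 0.19 on the log2 scale, and 1 to 2 and 0 to 8 with 1 array left out, the 8 arising without podocyte mutant array A. The sign turned for Bmp4 in podocytes (-0.28 to 0.62 with 1 array left out, lowest without mutant array A), for Id2 in endothelial cells (-0.022 to 0.44, lowest without mutant array C), for Ltbp1 in mesangial cells (-0.19 to 0.082, highest without wild type array C, and 0.15 both with sex as a term and in Xist-positive arrays), and for Tgfb2 in endothelial cells (-0.26 to 0.36, lowest without wild type array B, and -0.017 after quantile normalization). None of these 4 differences had passed the screen. They are those of the members named by rule. Over all tested members the sign turned in 29 of 105 member comparisons with 1 array left out, none of which had passed the screen. The wild type counts stayed within 1.5 times the reported ones in every alternative run. Why results moved was not tested.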
